A study of Mus musculus with 16 samples.

Results

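The enzymes that set the amount of fructose 2,6-bisphosphate in the cell were followed through the RNA sequencing libraries of this series. They are the 4 isozymes of 6-phosphofructo-2-kinase/fructose-2,6-bisphosphatase, encoded by Pfkfb1, Pfkfb2, Pfkfb3 and Pfkfb4, and the related phosphatase TIGAR, encoded by Tigar. The members were chosen by gene symbol, with earlier results of these data known, and all 5 were found among the 49585 gene identifiers of the deposited tables. RNA came from the bones of C57BL/6 mice aged 8 to 12 weeks, from cells sorted as neutrophils according to the labels. P2KO denotes mice labelled as Vav:cre-PHD2f/f, in which the oxygen sensor PHD2 is deleted by a recombinase driven by Vav, a promoter active throughout the blood lineages. P2H2KO denotes mice labelled as Vav:cre-PHD2/HIF2ff/ff, in which PHD2 and the transcription factor subunit HIF2α are deleted together. Each has its own controls labelled as wild type, P2WT and P2H2WT, and the labels do not say which floxed alleles or Cre those controls carry. There were 4 libraries in each of the 4 groups. Nothing in the labels states that each came from another mouse, so p values measure the spread between these libraries.

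Fructose 2,6-bisphosphate is the strongest known activator of phosphofructokinase 1, the committed step of glycolysis, and an inhibitor of the opposing enzyme fructose 1,6-bisphosphatase. Each PFKFB protein carries a kinase domain that makes it and a phosphatase domain that removes it, and the isozymes differ in the balance between both activities. PFKFB3 is known for a high kinase activity relative to its phosphatase, PFKFB1 for its role in liver and PFKFB2 for its role in heart. TIGAR, first described as a p53 target, lowers fructose 2,6-bisphosphate and so favours the pentose phosphate pathway, the source of NADPH for the neutrophil oxidase. Pfkfb3 and Pfkfb4 are textbook targets of hypoxia-inducible factors (HIF), whose α subunits PHD2 marks for degradation. Neutrophils draw most of their energy from glycolysis. The comparisons therefore ask whether these regulators change when PHD2 is lost, with and without HIF2α.

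The stretch before the transcription start is shown for Pfkfb3 and Pfkfb4, the members whose levels ran together across libraries, and for Pfkl, the liver-type phosphofructokinase 1 gene, which rose in both deficient groups. Sequences are the 250 bases before a RefSeq start on GRCm38.p6, read 5′ to 3′ on the gene's strand. Capitals mark the letters ACGTG and GCGTG, the core to which HIF binds, searched on both strands, so that the reverse strand reads CACGT and CACGC. The palindrome CACGTG holds ACGTG on both strands and is counted as 1 window like any other.
Pfkfb3, first start, chr2:11553930-11554179, minus strand: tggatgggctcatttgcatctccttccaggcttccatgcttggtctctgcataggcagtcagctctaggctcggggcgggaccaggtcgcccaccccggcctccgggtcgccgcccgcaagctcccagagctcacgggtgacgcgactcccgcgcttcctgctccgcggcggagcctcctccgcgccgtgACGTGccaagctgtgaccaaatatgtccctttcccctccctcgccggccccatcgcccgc
Pfkfb3, downstream start, chr2:11502091-11502340, minus strand: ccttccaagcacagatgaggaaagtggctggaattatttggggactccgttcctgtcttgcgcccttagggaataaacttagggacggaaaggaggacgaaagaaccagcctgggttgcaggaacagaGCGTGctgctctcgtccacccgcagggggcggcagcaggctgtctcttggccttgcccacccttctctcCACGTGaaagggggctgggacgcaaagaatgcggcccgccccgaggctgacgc
Pfkfb4, chr9:108991652-108991901, plus strand: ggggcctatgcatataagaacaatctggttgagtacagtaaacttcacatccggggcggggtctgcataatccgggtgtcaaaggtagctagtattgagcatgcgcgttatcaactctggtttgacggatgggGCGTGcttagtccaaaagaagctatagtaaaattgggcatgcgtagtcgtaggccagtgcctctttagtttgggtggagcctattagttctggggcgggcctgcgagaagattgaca
Pfkl, chr10:78009808-78010057, minus strand: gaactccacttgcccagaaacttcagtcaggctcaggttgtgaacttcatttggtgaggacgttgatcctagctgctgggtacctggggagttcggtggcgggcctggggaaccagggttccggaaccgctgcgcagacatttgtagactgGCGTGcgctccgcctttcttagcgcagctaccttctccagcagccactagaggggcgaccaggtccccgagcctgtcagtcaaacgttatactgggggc
The window of Pfkfb4 held 1 GCGTG and no ACGTG, as did that of Pfkl. Both windows of Pfkfb3 held ACGTG. Over all 5 members RefSeq gave 11 windows, of which 4 held ACGTG and 5 held GCGTG. Among them were the 3 windows of Pfkfb2, not printed here, of which 2 held ACGTG and 2 held GCGTG. The single window of Tigar held neither. Of all 32851 RefSeq windows of this length, 16.6% held ACGTG and 28.2% held GCGTG, so such matches are common, and they say nothing about whether a factor binds there.

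Total counts ranged from 23450746 to 28601284 per library, and the smallest count of any member in any library was 57, so all 5 members passed the filter on low counts in every comparison. The m or f suffix of the titles matched the sex-linked transcripts in all 16 libraries, and f was given to 2 libraries of P2WT, 1 of P2KO, 1 of P2H2WT and 2 of P2H2KO. Markers of neutrophils were abundant: the 10 mature neutrophil genes, among them S100a8, S100a9 and Cxcr2, summed to between 15208 and 42170 CPM (read counts scaled to library size) in a library, and the 7 late granule genes to between 21575 and 52209 CPM. Erythroid genes were as abundant, since the 10 on that list, haemoglobin genes among them, summed to between 24683 and 50364 CPM. None of the markers of the 8 cell lists was at 0 throughout a group. Levels given below are thus those of libraries that hold transcripts of several marrow cells. Fewer cells of a type and less RNA per cell cannot be told apart in them.

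Pfkfb4 was the most abundant of the 5 transcripts per length in every library. CPM values were divided by the kilobases of merged exons of each gene (GENCODE M21, GRCm38). On this scale Pfkfb4 was at 18.4 ± 4.34 CPM per kilobase (SD, n = 16), Pfkfb3 at 8.18 ± 1.19, Tigar at 2.12 ± 0.322, Pfkfb2 at 0.767 ± 0.173 and Pfkfb1 at 0.690 ± 0.0936. The lowest Pfkfb4 value, 12.1, lay above the highest Pfkfb3 value, 10.95. In turn the lowest Pfkfb3 value, 6.92, lay above the highest Tigar value, 2.54, and the lowest Tigar value, 1.62, above the highest Pfkfb2 value, 1.05. These separations depend on the length used. With each gene's longest transcript, the ranges of Pfkfb4 and Pfkfb3 overlapped, as did those of Tigar and Pfkfb2. On merged exons Pfkfb2 and Pfkfb1 overlapped as well. Pfkfb2 was the higher of that pair in 12 libraries and Pfkfb1 in 4. Among 12068 genes with a mean of at least 1 CPM, the level of Pfkfb4 per kilobase stood at percentile 76.8, Pfkfb3 at 57.0, Tigar at 25.2, Pfkfb2 at 11.2 and Pfkfb1 at 10.03.

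**Figure D1:**
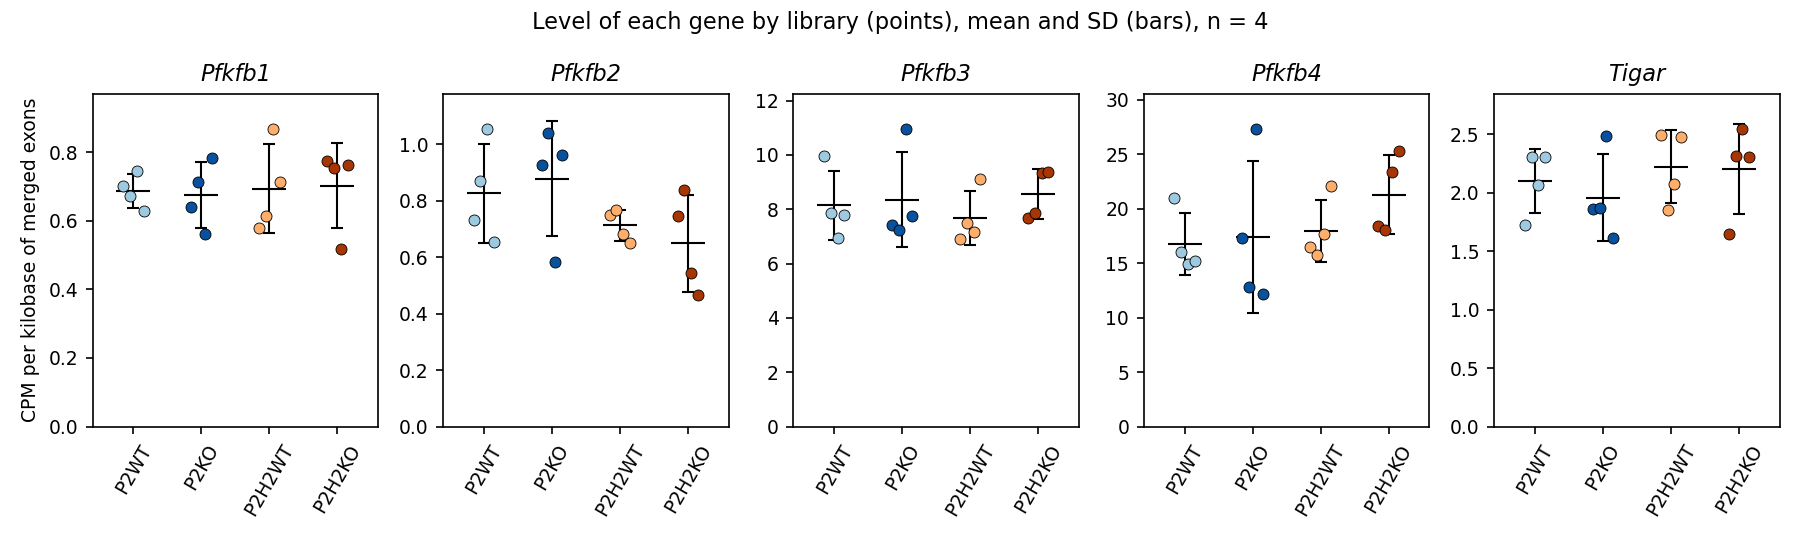
Level of each gene in CPM per kilobase of merged exons (vertical axes, each from 0) by group. Points are libraries, bars the mean and SD of 4, and the groups overlap in all 5 genes, with Pfkfb4 between 12.1 and 27.3 and Pfkfb1 between 0.519 and 0.867.

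The 4 PFKFB genes thus formed a family dominated by Pfkfb4 and Pfkfb3. As a share of the summed CPM per kilobase of the 4 genes, Pfkfb4 took 65.0% ± 3.82 (SD, n = 16), Pfkfb3 29.5% ± 2.57, Pfkfb2 2.91% ± 1.06 and Pfkfb1 2.55% ± 0.606. The Pfkfb4 share was 63.4% ± 0.961 in P2WT, 62.5% ± 6.13 in P2KO, 66.3% ± 1.69 in P2H2WT and 68.0% ± 2.25 in P2H2KO (n = 4 each). The widest range was in P2KO, from 56.1% in replicate 9 to 69.3% in replicate 6. Pfkfb4 exceeded Pfkfb3 by a factor of 2.23 ± 0.299 per kilobase, with a range from 1.56 to 2.70 over the 16 libraries. These shares are a description over chosen genes and were not tested.

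**Figure D2:**
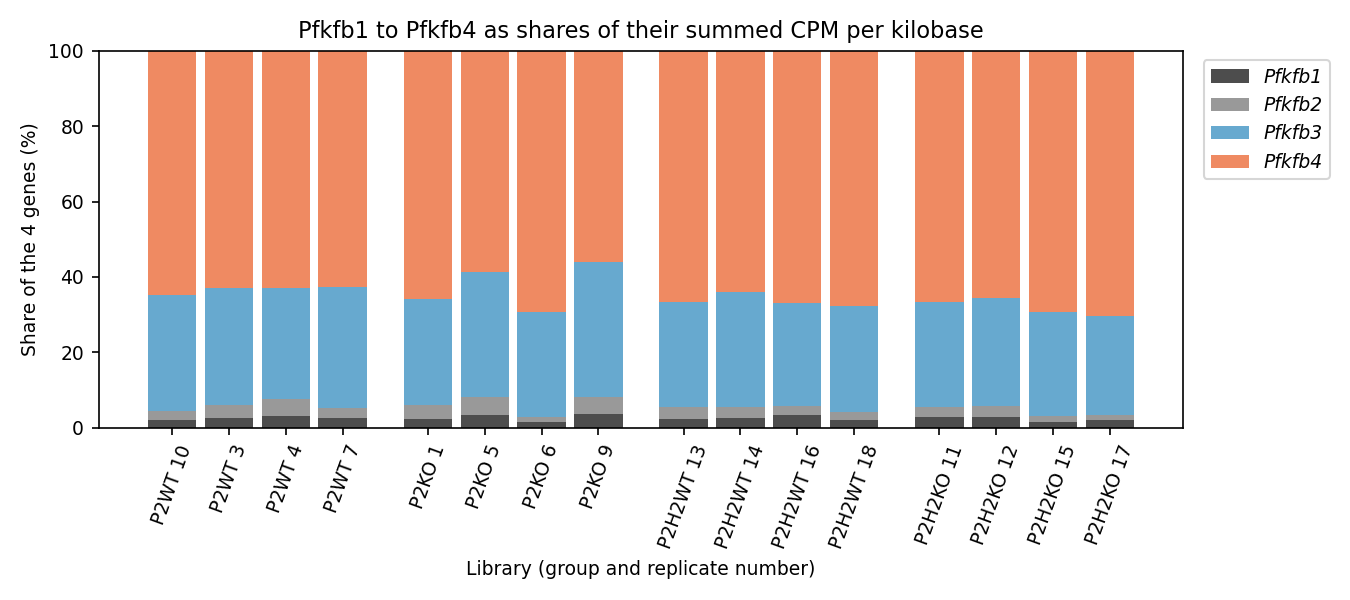
Shares of Pfkfb1 to Pfkfb4 in the sum of their CPM per kilobase (vertical axis, %), with 1 bar per library, ordered by group and replicate number. Pfkfb4 makes up between 56.1% and 70.5% of each bar, and Pfkfb1 and Pfkfb2 together form the thin base.

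The gene models set limits on these counts. Pfkfb1 (ENSMUSG00000025271) lies on chromosome X, 150588229 to 150643878, plus strand, and 123 of its exon bases overlap Apex2 on the other strand. Pfkfb2 (ENSMUSG00000026409; chromosome 1, 130689182 to 130729253, minus strand) shares 1262 exon bases, 17.4% of its own, with Gm29427 on the same strand and 154 with Yod1 on the other. Pfkfb3 (ENSMUSG00000026773; chromosome 2, 11471433 to 11554077, minus strand) and Pfkfb4 (ENSMUSG00000025648; chromosome 9, 108991778 to 109032228, plus strand) have no exon overlap with another gene. Tigar (ENSMUSG00000038028; chromosome 6, 127085116 to 127109557, minus strand) shares 122 exon bases with the antisense gene Platr31. The strand setting of the counting is not given in the sources used here, so the overlaps on the other strand leave the counts of Pfkfb1, Pfkfb2 and Tigar uncertain to that extent. The overlap of Pfkfb2 with Gm29427 is on the same strand and limits its count under any strand setting.

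No change in any of the 5 regulators was detected without PHD2 in the first line. Of 13734 genes tested in P2KO against P2WT, 6 passed an adjusted p of 0.05 (0.0437%; edgeR quasi-likelihood test, Benjamini-Hochberg over all genes tested), and 0 of the 5 members were among them. At an edgeR unadjusted p under 0.05 the count of members was also 0, beside 480 of the 13734 genes tested. At so low a share, 0 of 5 does not set the members apart. DESeq2 called 0 of the 5. None of the 5 had groups that did not overlap, which 2.25% of the tested genes had.

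Pfkfb4 was at 102.1, 78.2, 72.6 and 74.1 CPM in P2WT replicates 10, 3, 4 and 7. In P2KO replicates 1, 5, 6 and 9 it was at 84.25, 62.3, 133 and 59.2 CPM. The highest and the lowest of the 8 values were thus both from P2KO, and the groups overlapped throughout. The log2 fold change was 0.06 (SE 0.25, 95% interval -0.51 to 0.64, edgeR unadjusted p 0.808, adjusted p 1). Without P2KO replicate 6 it turned to -0.24, and with the suffix as a covariate it was 0.015.

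Pfkfb3, the isozyme with the strongest kinase bias, was at 75.3, 59.6, 52.4 and 58.9 CPM in P2WT replicates 10, 3, 4 and 7. The P2KO values were 56.2, 54.8, 82.8 and 58.7 CPM in replicates 1, 5, 6 and 9. One library in each group, replicate 10 of P2WT and replicate 6 of P2KO, stood above the remaining values. The log2 fold change was 0.05 (SE 0.16, 95% interval -0.31 to 0.41, edgeR adjusted p 1), and it turned to -0.11 without P2KO replicate 6 and to -0.021 without P2WT replicate 4.

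Pfkfb2 was at 5.30, 6.31, 7.64 and 4.74 CPM in P2WT replicates 10, 3, 4 and 7, and at 6.73, 7.56, 4.23 and 6.99 CPM in P2KO replicates 1, 5, 6 and 9. The lowest of the 8 values was in P2KO replicate 6, the library with the highest Pfkfb4, and the groups overlapped. The log2 fold change was 0.10 (SE 0.20, 95% interval -0.36 to 0.56). Pfkfb1 ranged from 2.53 to 2.99 CPM in P2WT and from 2.25 to 3.15 CPM in P2KO, with a log2 fold change of -0.015 (95% interval -0.34 to 0.31). Tigar ranged from 6.31 to 8.42 CPM in P2WT and from 5.91 to 9.09 CPM in P2KO, with a log2 fold change of -0.087 (95% interval -0.43 to 0.26).

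In the line that also lacks HIF2α, Pfkfb4 and Pfkfb3 were somewhat higher on average in the deficient libraries, by less than the test could separate from the spread. Of 13435 genes tested in P2H2KO against P2H2WT, 10 passed the edgeR threshold (0.0744%), and 0 of the 5 members did. The count of members at an edgeR unadjusted p under 0.05 was 0 here too, beside 354 of the 13435 genes tested. DESeq2 called 0 of the 5, and no member had groups without overlap, against 1.71% of the genes tested.

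Pfkfb4 was at 80.2, 76.7, 85.9 and 107.7 CPM in P2H2WT replicates 13, 14, 16 and 18. The P2H2KO values were 89.8, 87.9, 113.9 and 123.3 CPM in replicates 11, 12, 15 and 17. All 4 deficient libraries lay above 3 of the 4 controls, and replicate 18 of P2H2WT lay among the upper values. The log2 fold change was 0.24 (SE 0.14, 95% interval -0.071 to 0.56, edgeR unadjusted p 0.114, adjusted p 0.9999).

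Pfkfb3 was at 52.3, 56.7, 54.1 and 68.9 CPM in P2H2WT replicates 13, 14, 16 and 18, and at 58.1, 59.5, 70.55 and 70.8 CPM in P2H2KO replicates 11, 12, 15 and 17. The same 3 controls were the lowest as for Pfkfb4. The log2 fold change was 0.16 (SE 0.10, 95% interval -0.077 to 0.40, edgeR adjusted p 0.9999). Pfkfb2 was at 5.44, 5.58, 4.95 and 4.73 CPM in these P2H2WT replicates and at 5.41, 6.085, 3.95 and 3.38 CPM in those of P2H2KO, with a log2 fold change of -0.14 (95% interval -0.56 to 0.29). Its lowest values were in P2H2KO replicates 15 and 17, which held the highest Pfkfb4. These are the libraries of that group with the suffix f, and with the suffix as a covariate the log2 fold change of Pfkfb2 was -0.066 and that of Pfkfb4 0.17. Pfkfb1 and Tigar had log2 fold changes of 0.017 (95% interval -0.42 to 0.45) and -0.013 (-0.36 to 0.34).

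Both lines were then combined in a fit of all 16 libraries. The mean of both log2 fold changes was 0.15 for Pfkfb4 (SE 0.15, 95% interval -0.18 to 0.48), or 1.107-fold with an interval from 0.882 to 1.39. It was 0.097 for Pfkfb3 (SE 0.10, interval -0.12 to 0.31), -0.023 for Pfkfb2 (-0.33 to 0.29), -0.0048 for Pfkfb1 (-0.25 to 0.24) and -0.057 for Tigar (-0.30 to 0.18). No member passed the threshold (edgeR adjusted p 0.9998 for each), whereas 24 of 14080 genes did (0.17%). Without P2KO replicate 6 the mean of Pfkfb4 was -0.0052.

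No dependence of the members on HIF2α was detected. The contrast of the P2 fold change minus the P2H2 fold change was -0.19 for Pfkfb4 (SE 0.31, 95% interval -0.85 to 0.46), -0.12 for Pfkfb3 (SE 0.20, -0.55 to 0.30), 0.23 for Pfkfb2 (SE 0.29, -0.39 to 0.85), -0.041 for Pfkfb1 (SE 0.23) and -0.087 for Tigar (SE 0.22). Over all 14080 genes 0 passed the threshold (edgeR, 0%; 212 at an unadjusted p under 0.05, none of them a member; DESeq2 called 0). Without P2KO replicate 6 the contrast was -0.50 for Pfkfb4, -0.28 for Pfkfb3, 0.38 for Pfkfb2 and -0.22 for Tigar. At the other end it was -0.056 for Pfkfb4 and -0.0054 for Tigar without P2KO replicate 9, -0.011 for Pfkfb3 without P2WT replicate 10 and 0.090 for Pfkfb2 without P2H2KO replicate 17. The intervals are wide: for Pfkfb4 they run from 0.555 to 1.38 times, so a moderate dependence on HIF2α in either direction was not detectable with this number of libraries. Between the controls of both lines 0 of the 5 members passed either (edgeR called 32 of 14080 genes, 0.227%) and none was without overlap (7.77% of genes were), with log2 differences of P2WT minus P2H2WT between -0.10 for Pfkfb4 and 0.21 for Pfkfb2.

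**Figure D3:**
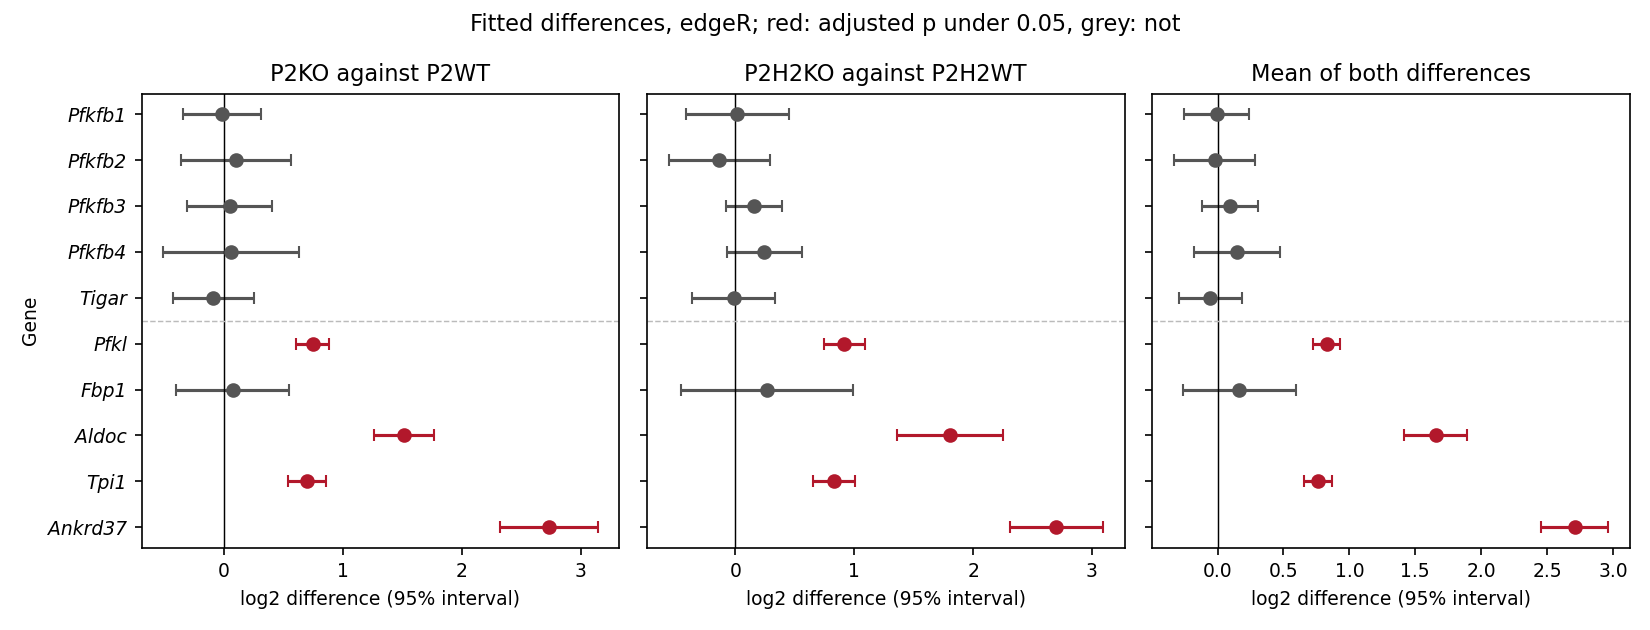
Log2 differences with 95% intervals (horizontal axes) for the 5 members above the dashed line and 5 other genes below it, in P2KO against P2WT, P2H2KO against P2H2WT and the mean of both. All 15 member intervals cross 0, while Pfkl, Aldoc, Tpi1 and Ankrd37 (red, adjusted p under 0.05) lie to the right.

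Of the 3 phosphofructokinase 1 genes, Pfkl passed the test, and Pfkm (muscle type) and Pfkp (platelet type) did not. Pfkl, whose enzyme this metabolite activates, was at 58.2 ± 2.56 CPM in P2WT and 97.0 ± 4.68 CPM in P2KO (SD, n = 4). It was at 57.4 ± 2.67 CPM in P2H2WT and 108.3 ± 9.22 CPM in P2H2KO, and it rose in both comparisons (edgeR adjusted p 0.00198 and 0.00233). The mean of both differences was 1.77-fold for Pfkl, with a 95% interval from 1.66 to 1.90 that lies above that of Pfkfb4 (edgeR adjusted p 7.08e-08). The mean log2 fold change was 0.065 for Pfkm (SE 0.12, 95% interval -0.19 to 0.32) and 0.23 for Pfkp (SE 0.12, interval -0.032 to 0.48; edgeR adjusted p 0.9998 for each). Fbp1, which encodes the opposing fructose 1,6-bisphosphatase, was low throughout, at 2.40 ± 0.453, 2.51 ± 0.544, 2.55 ± 0.895 and 3.09 ± 1.19 CPM in P2WT, P2KO, P2H2WT and P2H2KO, and did not pass the test (mean log2 fold change 0.17, SE 0.20, edgeR adjusted p 0.9998). Per kilobase, Pfkm and Pfkl were of the order of Pfkfb4: 15.2 ± 2.19 and 8.72 ± 0.384 CPM per kilobase in P2WT, and 13.7 ± 3.48 and 16.2 ± 1.38 in P2H2KO.

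Of the 14 enzymes of the sugar phosphate steps from hexokinase to triose phosphate isomerase, 12 were tested in the P2 line and 11 in the P2H2 line. In each line 3 were called higher (Aldoc, Pfkl and Tpi1) and 0 lower, with 4 and 5 at an edgeR unadjusted p under 0.05. Over all genes tested, 480 of 13734 and 354 of 13435 were under that p. The median log2 fold change of these enzymes was 0.17 and 0.27, beside 0.020 and 0.0011 over all genes tested. Among 13 genes for kinases and ubiquitin ligases that act on PFKFB proteins, such as Prkaa1 (an AMPK subunit), Akt1 and Fzr1, 12 were tested in each line and 0 were called in either direction, also 0 at an unadjusted p under 0.05. Their medians were -0.0042 and 0.014. The 16 pentose phosphate and p53 pathway genes around Tigar were all tested, and 0 were called by edgeR in either line, with 0 at an unadjusted p under 0.05 and medians of -0.0080 and -0.026.

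Of 16 other HIF targets, 15 were tested in each line. After adjustment edgeR called 1 higher in P2KO and 5 in P2H2KO, with 0 lower. At an edgeR unadjusted p under 0.05 the counts were 10 and 11, beside 480 of 13734 and 354 of 13435 over all genes tested. Of the 15 targets, 14 and 15 had a log2 fold change above 0. The contrast of both fold changes called 0 of these targets, but it called 0 of all 14080 genes, so this count does not show equal responses. It lay below 0 for 14 of the 15 targets (median -0.17), with the higher fold change in the P2H2 line. The median log2 fold change of these targets was 0.50 and 0.61. The members introduced above as HIF targets lay below these medians, Pfkfb4 at 0.063 and 0.24 and Pfkfb3 at 0.048 and 0.16. By the definition of a median, as many listed targets lay below it as above it. Among those below in both lines were Vegfa at 0.18 and 0.19, Ero1l at 0.17 and 0.21 and Car9 at -0.19 and 0.18. None of these was called, so the members were not set apart from the list. Medians over all 5 members, which include genes not introduced as HIF targets, were 0.048 and 0.017. Ankrd37, an ankyrin repeat gene used as a marker of HIF activity, was at 0.657 ± 0.120 CPM in P2WT, 4.37 ± 0.583 CPM in P2KO, 0.790 ± 0.0734 CPM in P2H2WT and 5.16 ± 0.837 CPM in P2H2KO. These lists were written with earlier results of the same libraries known, so their counts are a description.

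Across the libraries Pfkfb3 and Pfkfb4 varied together, and Pfkfb2 varied in the opposite direction. Each log2 CPM value was centred on the mean of its line's 8 libraries, so that a difference between the lines plays no part, while the difference between deficient and control libraries stays in. Pfkfb3 and Pfkfb4 then ran in parallel (Pearson r 0.887, Spearman 0.785, 16 libraries), within the P2 line (r 0.866, 8 libraries) and the P2H2 line (r 0.936) alike, and with r 0.785 without the 2 libraries farthest out in Pfkfb3. Pfkfb2 ran against both, with r -0.792 to Pfkfb3 and -0.799 to Pfkfb4, and -0.656 and -0.635 without the 2 libraries farthest out in Pfkfb2. Tigar and Pfkfb1 were less tied to Pfkfb4, with r 0.455 and -0.344, and the latter was 0.0697 without 2 libraries. These correlations are descriptions over libraries that share a normalization, and carry no p.

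Pfkfb4 followed the mature and the late granule neutrophil markers. The mature neutrophil score, the mean log2 level of the 10 genes on that list, ran with Pfkfb4 at r 0.982 (Spearman 0.950, 16 libraries, centred within lines), at 0.985 over the P2 libraries, 0.974 over the P2H2 libraries and 0.974 without the 2 libraries farthest out. In the P2KO group the score was 8.19, 8.42, 8.81 and 9.58 in replicates 9, 5, 1 and 6, and Pfkfb4 was at 59.2, 62.3, 84.25 and 133 CPM in the same order. The 4 libraries highest in Pfkfb4 among all 16 were the 4 highest in the score, and the 4 lowest were the 4 lowest. The late granule score gave the same overlap at both ends and ran with Pfkfb4 at r 0.955, at 0.985 over the P2 libraries and 0.909 over the P2H2 libraries.

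Pfkfb3 ran with the same score at r 0.885 and Tigar at 0.422. Pfkfb2 ran against it at r -0.766 and against the late granule score at r -0.818, and all 4 libraries lowest in Pfkfb2 were the 4 highest in the score. Pfkfb2 instead followed the cell cycle list (r 0.907) and the erythroid list (r 0.843), with which Pfkfb4 had r -0.773 and -0.767. The mature score ranged from 8.56 to 9.33 in P2WT, from 8.19 to 9.58 in P2KO, from 8.86 to 9.48 in P2H2WT and from 8.94 to 9.68 in P2H2KO, and all 10 genes of that list had a log2 fold change above 0 in the P2H2 line, with 0 called. The part of cell content in the Pfkfb4 values was not tested.

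**Figure D4:**
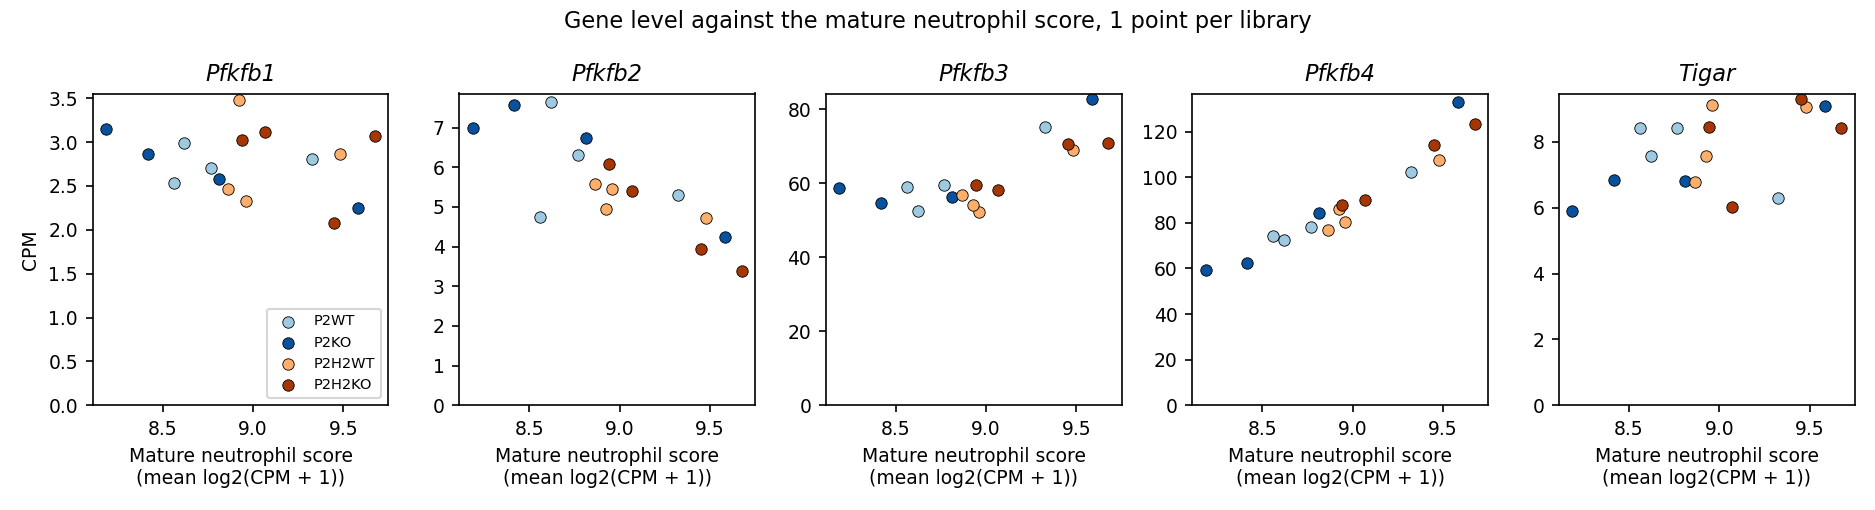
CPM of each gene (vertical axes, from 0) against the mature neutrophil score (horizontal axes, mean log2(CPM + 1) of 10 marker genes), 1 point per library, coloured by group. Pfkfb4 is at 59.2 CPM at the lowest score and above 100 CPM at the highest, and Pfkfb2 runs the opposite way. The deficient and control libraries overlap in the score.

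With the mature score as a covariate, an alternative added after the data had been seen, the SE of the mean log2 fold change of Pfkfb4 fell from 0.15 to 0.035. The value was 0.055 (95% interval -0.019 to 0.13, edgeR unadjusted p 0.136, adjusted p 0.9999). Because this score was picked for how closely it tracks Pfkfb4, the smaller SE follows from that choice, and the interval is not a bound on the change. With covariates for the erythroid and the late granule score the mean of Pfkfb4 was 0.12 (SE 0.038, interval 0.043 to 0.21, edgeR unadjusted p 0.00535). It did not pass the adjustment over all genes (edgeR adjusted p 0.262). The late granule score also tracks Pfkfb4 closely (r 0.955), so this interval is not a bound on the change either. Separate fits of each line's 8 libraries also used the erythroid and late granule covariates. The log2 fold change of Pfkfb4 was then 0.11 for P2KO against P2WT (SE 0.042, 95% interval 0.012 to 0.20, edgeR unadjusted p 0.0309, adjusted p 0.695). For P2H2KO against P2H2WT it was 0.17 (SE 0.050, interval 0.059 to 0.28, edgeR unadjusted p 0.00724, adjusted p 0.509). Neither passed the adjustment. For Pfkfb3 the mean log2 fold change was 0.062 (SE 0.051) with the mature score and 0.085 (SE 0.052) with the other scores.

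The genes whose pattern was most like that of each member were ranked by Pearson r over the same 16 centred values, among 9543 genes with a mean of at least 5 CPM. For Pfkfb4 these were Slc2a3, which encodes the glucose transporter GLUT3, at r 0.991, Asb7 at 0.990 and Siglece, a sialic acid receptor gene of myeloid cells, at 0.988. Slc2a3 ranged from 168 CPM in P2KO replicate 9 to 495.5 CPM in P2KO replicate 6, the libraries with the lowest and the highest Pfkfb4. For Pfkfb3 they were Zdhhc18 (r 0.969), the calcium channel gene Orai2 (0.961) and Mpzl3 (0.959), all of them highest in P2KO replicate 6. Oard1, Atg14 and Cep89 were closest to Pfkfb2, with r between 0.937 and 0.944, Tsc22d1, Eloc and Tmem234 to Pfkfb1, with r between 0.728 and 0.801, and Pqlc2, Snx19 and Dpp9 to Tigar, with r between 0.851 and 0.871.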

How the data were processed

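The data are raw counts per Ensembl gene in 16 libraries, in 2 tables as the authors deposited them. HTSeq and mm10 are named in the submitters' processing notes. The aligner, the annotation release and the strand setting are not given in the sources used here. The titles gave each library's group and replicate number. Symbols from GENCODE M21 matched 49326 of 49585 identifiers.

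Genes were filtered with filterByExpr, scaled with TMM and tested with glmQLFit (robust) and glmQLFTest of edgeR 4.0.16 in R 4.3.3, two-sided, with Benjamini-Hochberg adjustment over all genes tested and a threshold of 0.05. Each line was fitted on its 8 libraries, and the contrast and the mean of both fold changes on all 16. CPM values are on the TMM scale of the 16 libraries. Correlations and score covariates were computed on log2 CPM (prior count 2). The score values printed are means of log2(CPM + 1). The mature neutrophil score as a covariate was chosen after seeing the data. DESeq2 1.42.0 was an alternative. The procedure was tested on simulated counts. The counts of the 24 pairs of libraries within groups differed by more than sampling noise (chi-square per degree of freedom of at least 11.5).

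The members and gene lists were chosen with earlier results of these data known. Named genes were the 5 members, Pfkl and Fbp1, genes of the 4 pathway lists past the threshold (up to 3 per comparison) and the 3 genes most like each member. Prkaa1, Akt1, Fzr1, Pfkm and Pfkp were named besides, after their values had been seen.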

Additional observations from a re-analysis of the deposited data

Results flagged for a closer look

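In 20 groups of 4 libraries (5 genes in 4 groups) 2 held a library far from the other 3, where chance would flag about 1 in 20. Pfkfb3 in P2KO replicate 6 was at 82.8 CPM, and its gap to the next value made up 0.859 of the range of the group. The same library held the highest Pfkfb4 of all 16 and the mature neutrophil score of 9.58, the highest of its group. Pfkfb1 in P2H2KO replicate 15 was at 2.08 CPM, with a gap of 0.909 of the range of the group, whose highest value was 3.12 CPM.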

How the results depend on the processing

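Under the alternatives 0 of 530 member values passed the threshold, and the smallest adjusted p was 0.240 (edgeR, Pfkfb3 in P2WT against P2H2WT with the mature neutrophil score). Outside the fits that left out a library, 8 of 210 member values changed sign. With the suffix as a covariate Pfkfb1 was 0.0017 in the P2 line. With the erythroid and late granule scores the contrast of Tigar was 0.051, the mean of Pfkfb1 0.015, and Pfkfb1 and Pfkfb4 were 0.057 and 0.067 in P2WT against P2H2WT. With the mature score Pfkfb2 was 0.019 in the P2H2 line, the mean of Pfkfb1 0.0032 and Pfkfb4 0.098 in P2WT against P2H2WT. Leaving out each library in turn changed the sign of 34 of 320 values. Pfkfb1 then lay between -0.095 and 0.064 for P2KO against P2WT, between -0.062 and 0.14 for P2H2KO against P2H2WT, from -0.17 to 0.038 in the contrast, from -0.044 to 0.058 in the mean and from -0.093 to 0.11 between controls. The mean of Pfkfb2 ranged from -0.093 to 0.053, that of Pfkfb4 from -0.0052 to 0.22 and that of Tigar from -0.12 to 0.0011. For P2KO against P2WT, Pfkfb3 lay between -0.11 and 0.16 and Pfkfb4 between -0.24 and 0.20. Between controls Pfkfb3 lay between -0.026 and 0.18 and Pfkfb4 between -0.23 and 0.014. Tigar ranged from -0.094 to 0.10 in the P2H2 line. The causes were not tested.

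Over all genes, DESeq2 called 22 in the P2 line (6 in the main test), 39 in the P2H2 line (10), 65 in the mean (24) and 277 between controls (32). The erythroid and late granule scores gave 24, 19, 68 and 4, and the mature score 12, 43 and 58 in the P2 line, the mean and between controls. All 16 libraries in the fit gave 10 in the P2 line. Between controls no filter gave 9, at least 10 counts in every library 0 and the suffix 124. Without single libraries the counts were 4 to 6, 6 to 9 and 15 to 30 in the P2 line, the P2H2 line and the mean, and 0 (without P2H2WT replicate 13) to 182 (without P2KO replicate 9) between controls. With the longest transcript as length, mean levels were 1.03, 1.235, 12.9 and 25.6 CPM per kilobase for Pfkfb1 to Pfkfb4, in the same order. The ranges of Pfkfb4 and Pfkfb3 over the libraries then overlapped, as did those of Tigar and Pfkfb2. No paired analysis was possible because the labels give no pairing of libraries. Each replicate number is used once in the series, so the numbers do not show whether libraries were paired.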
